A study of Mus musculus with 4 samples.

Results

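Alveolar type II cells from tumor-bearing Tlr3-deficient mice were compared with the same cells from tumor-bearing wild-type (WT) mice. These are 2 of the 4 samples of the series, taken by their titles, with 1 array each. Alveolar type II cells line the lung alveolus, make surfactant and renew its epithelium, and here they were sorted by flow cytometry. Both groups were female mice that carried Lewis lung carcinoma, a mouse lung cancer line, placed under the skin 2 weeks before the lungs were taken; 1 group was WT and the other Tlr3-/-. The other 2 samples are the same genotypes without tumor, and they are used below only to show where a difference was also present. The labels do not give the Tlr3 allele, the strain, the age of the mice or how many mice went into an array. The question set by the design is which transcripts of these cells in tumor-bearing animals depend on Tlr3.

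Tlr3 is an endosomal receptor for double-stranded RNA, which signals through the adaptor Ticam1 to interferon and NF-kB target genes. In the lung it is found in epithelial as well as in myeloid cells. Antibodies are made of heavy and light chains, and each chain is encoded by a variable segment joined to a constant region at the heavy, kappa or lambda locus. B cells express these loci, and plasma cells, their secreting descendants, do so at very high levels together with Jchain, which links antibody units into polymers.

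The largest group of genes higher in Tlr3-deficient cells came from the antibody loci. The probes behind 6 of these variable segments are shown because probes that share sequence would not be separate readings. They are the 60-base probe sequences of the array, 5′ to 3′, as listed in the scanner files, on mm9, and capitals mark the longest run of at least 12 bases that 2 of them share.
Igkv3-4, chr6:70622214-70622273, plus strand: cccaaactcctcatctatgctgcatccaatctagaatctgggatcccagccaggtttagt
Igkv4-57-1, chr6:69494651-69494886, minus strand: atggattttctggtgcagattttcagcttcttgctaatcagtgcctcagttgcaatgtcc
Igkv4-59, chr6:69388234-69388293, minus strand: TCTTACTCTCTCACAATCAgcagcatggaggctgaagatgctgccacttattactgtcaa
Igkv4-55, chr6:69557315-69557374, minus strand: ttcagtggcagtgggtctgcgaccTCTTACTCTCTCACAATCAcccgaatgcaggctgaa
Igkv4-72, chr6:69176986-69177045, minus strand: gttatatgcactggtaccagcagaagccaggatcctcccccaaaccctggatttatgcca
Ighv1-77, chr12:117100209-117100268, minus strand: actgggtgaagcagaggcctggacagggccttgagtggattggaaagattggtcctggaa
The probes of Igkv4-59 and Igkv4-55 share a run of 19 bases and match at 32 of 36 overlapping bases, so those 2 readings are not independent of each other. The other pairs share no run longer than 7 bases. That does not make their readings separate, since probes at different positions can still read similar transcripts, which was not tested. Only these 6 probes were compared. Some of the antibody probes counted below lie almost on the same bases, such as those at chr6:69526133-69526191 and chr6:69526135-69526194. The annotated genome span of the Igkv4-57-1 probe is longer than its 60 bases.

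Levels are given as log2 of the processed intensity minus the log2 of the array's 75th percentile, so 0 is the 75th percentile of that array and a difference of 1 is 2-fold. A gene was tested where its signal stood well above background on either array, which left 18112, and 528 (2.92%) were at least 2-fold higher in Tlr3-deficient cells and 478 (2.64%) at least 2-fold lower, 5.55% in either direction. Of the higher genes 323 were measured on both arrays and 205 are bounds, since they were well above background in 1 sample only. Of the lower genes 290 were measured on both and 188 are bounds. In 4 of the 323 and 7 of the 290 the brightest probe itself was not well above background on both arrays, and the gene counted as measured through another probe. The median difference was -0.05 and the levels of the 16830 genes measured on both arrays correlated at r = 0.98 across genes, which are not independent replicates. The sizes were not symmetric: 103 genes were at least 8-fold higher and 24 at least 8-fold lower. With normexp background correction, which shrinks differences of dim genes, 245 genes were at least 2-fold higher and 183 lower. Counts of list members below are to be read beside the shares of 2.92% higher and 2.64% lower over all genes tested.

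With 1 array per group there is no replicate of the animals, no difference has a test, and the values below describe a pair of arrays. The SD of the difference between replicate spots was 0.11 over 169 probes, and the median of the scanner's own error for a difference was 0.20. Both cover spots and not animals. The 75th percentile of the intensity was 796 on the WT array and 904 on the Tlr3-deficient array. The 2 arrays lay on different slides, so slide and genotype cannot be told apart. All mice were labelled female, and Xist, the RNA of the inactive X chromosome, was at 4.04 in the WT and 3.80 in the Tlr3-deficient sample with tumor.

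**Figure D1:**
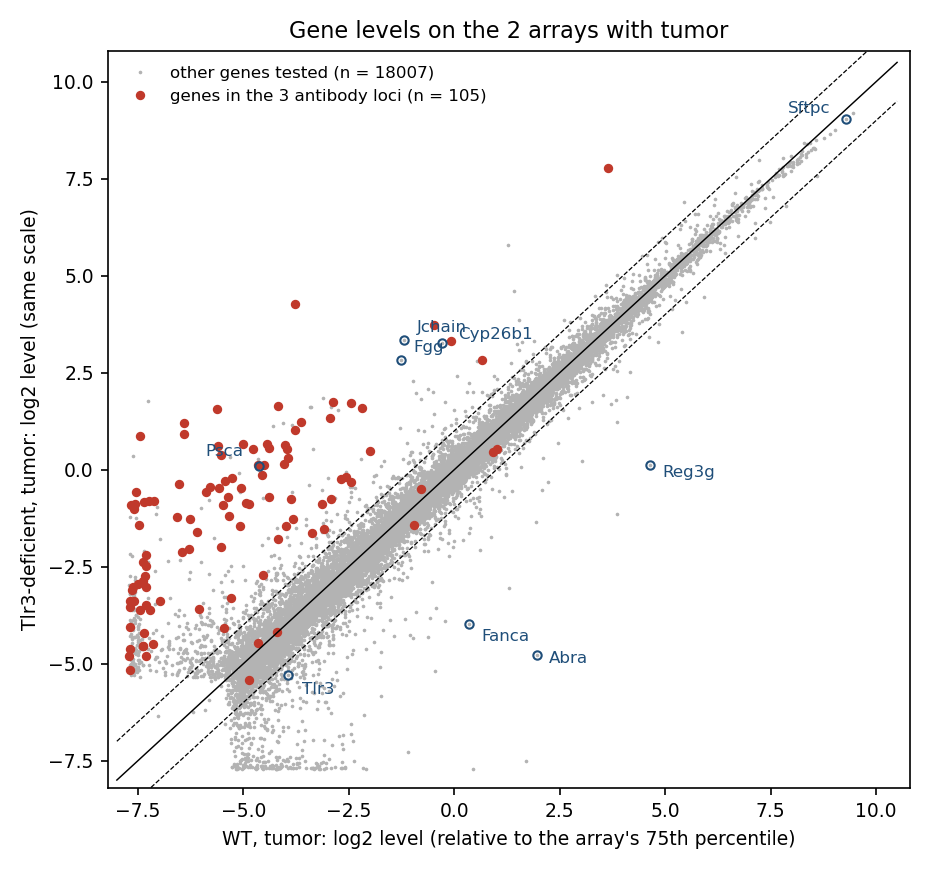
Each point is a gene, with its log2 level on the WT tumor array on the x axis and on the Tlr3-deficient tumor array on the y axis, both relative to the array's 75th percentile; the solid line marks equal levels and the dashed lines a 2-fold difference. Red points are the 105 tested genes whose probe lies in an antibody locus, and 91 of them were at least 2-fold higher in Tlr3-deficient cells and 0 lower; the 9 named circles are genes given in the text.

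Antibody transcripts were higher in Tlr3-deficient cells across all 3 loci. The windows run from the first to the last probe named for an antibody gene, and they were set with earlier results of these data known. Of 152 probes in them 128 were tested, and 61 of these were well above background on both tumor arrays. Of the 61, 54 were at least 2-fold higher in Tlr3-deficient cells, with a median difference of 3.71. A further 36 kappa and 30 heavy chain probes were tested only because they stood above background in Tlr3-deficient cells, so they could differ in that direction alone. With them 112 of 128 (87.5%) were higher and 0 lower. Over all probes tested 2.67% were called higher and 2.42% lower. The median difference of the 128 probes was 4.26, or 3.67 with the dim side set to its bound. Only 62 of these probes cleared the background in WT cells with tumor, while 127 did in Tlr3-deficient cells with tumor. In the 2 samples without tumor the numbers were 39 in WT and 30 in Tlr3-deficient cells, and the 25 probes above background in both had a median genotype difference of -0.14. Of the 44 probes above background in either of them, 10 were at least 2-fold lower in Tlr3-deficient cells and 2 higher, with bounds used. With tumor and normexp 101 of the 128 probes were still at least 2-fold higher.

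The kappa locus (chr6:67790101-70672917) held 60 tested probes, of which 54 were higher, with a median of 4.26, or 3.77 with bounds. The heavy chain locus (chr12:114496985-117190882) also held 60 tested probes, of which 50 were higher, with a median of 4.47, or 3.48 with bounds, so the order of these loci depends on the bounds. At the lambda locus (chr16:19061826-19085406) 8 of 8 probes were higher, with a median of 3.61. Most of them carry the name Iglv1, and some overlap, such as those at chr16:19085232-19085291 and chr16:19085268-19085327. They are therefore largely repeated readings of 1 gene. This locus was the only one of the 3 in which every tested probe was well above background on both tumor arrays. Without tumor 2 of its 8 probes were well above background in both samples, with differences of -0.16 and -2.82. Genes with a probe in these loci made up 91 of the 528 higher genes (17.2%) and 59 of the 103 genes at least 8-fold higher.

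**Figure D2:**
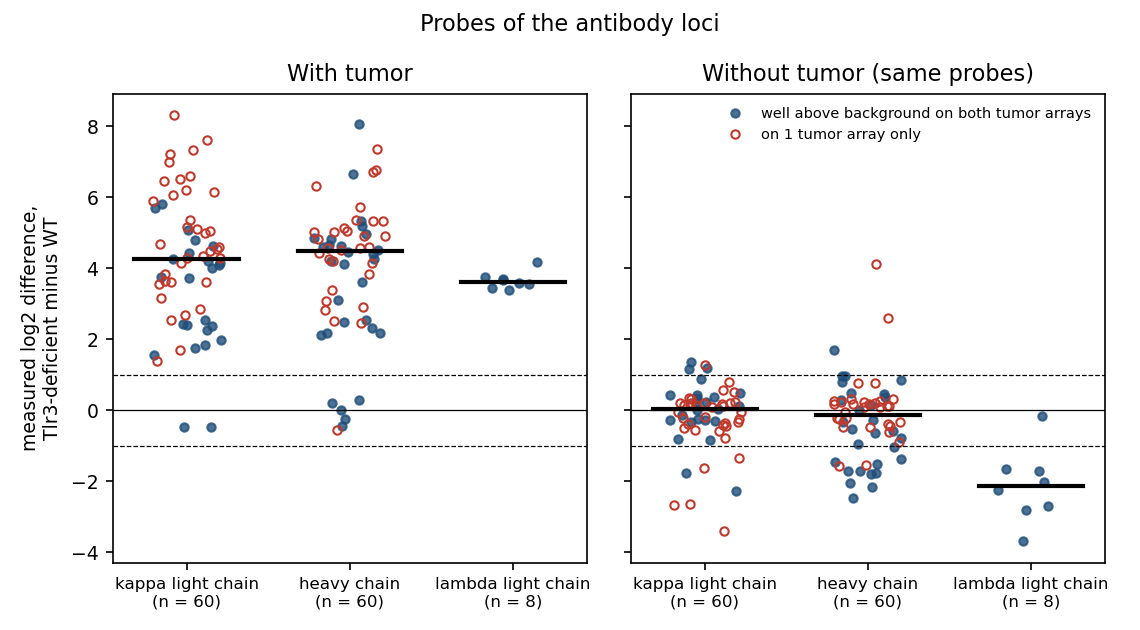
The y axis is the measured log2 difference, Tlr3-deficient minus WT, of each tested probe of the kappa (60), heavy (60) and lambda (8) loci, with tumor on the left and without tumor on the right; black bars are medians and dashed lines mark 2-fold. Open red circles were well above background on only 1 of the tumor arrays, so their true difference is known only as a bound; with tumor the medians are 4.26, 4.47 and 3.61, and without tumor they lie at 0.02, -0.14 and -2.14, where only 25 of the 128 probes were well above background in both samples.

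Among the variable segments shown above, Igkv4-59 was at -5.01 on the WT tumor array and 0.67 on the Tlr3-deficient one, a 51.3-fold difference. Igkv4-55 was at -4.43 and 0.65, 33.9-fold. Ighv1-77 was at -4.39 and 0.57, 31.1-fold. In each of them the WT level was within about 1 log2 unit of the lowest signal well above background (-5.39), and the Tlr3-deficient level was close to the array's 75th percentile. Igkv4-72, the brightest of the 6 in WT, was at -2.68 and -0.25, a smaller difference of 5.41-fold. Igkv3-4 was not well above background in WT and reached 1.20 in Tlr3-deficient cells, at least 96.4-fold higher. Igkv4-57-1 was at least 20.9-fold and Igkv4-86 at least 13.7-fold higher. Igkv1-117 has 2 probes: the brighter was at least 76.5-fold higher, and the other, measured on both arrays, was at -4.83 and -0.69. Of all 16 tested genes whose symbol starts with Igkv, Ighv or Iglv, 14 were higher and 0 lower, 8 of them known only as a bound. Iglv1, named for a lambda variable segment, was at -0.08 and 3.31 at its brightest probe (chr16:19061826-19061885). At the other end of the locus window another Iglv1 probe (chr16:19085347-19085406) was dimmer, at -3.61 and -0.05. Which part of the lambda transcript each probe reads was not tested.

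The size of the difference varied between constant region probes. They were identified from the array's own probe descriptions after their values were seen. The brighter probe for Ighg2c, the IgG2c heavy chain (chr12:114525673-114525732), was at -3.78 in WT and 4.27 in Tlr3-deficient cells with tumor, a 265-fold difference. The other Ighg2c probe was at -5.08 and 1.57, a difference of 6.64 log2 units. Without tumor the brighter probe was at -6.69 in WT and -6.55 in Tlr3-deficient cells, so the tumor-bearing Tlr3-deficient sample alone was high. For Ighg1, the IgG1 heavy chain, both probes stayed near background in WT cells with tumor, and the differences were at least 36.2-fold for the first and at least 22.8-fold for the second. A neighboring probe described only as immunoglobulin heavy chain (chr12:114567137-114567196) was at -1.99 and 0.48, 5.55-fold higher. A probe described as gamma polypeptide (chr12:114544665-114544724) was at -0.47 and 3.72, 18.3-fold higher.

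At the IgM and IgG3 probes the differences were smaller than at Ighg2c. The 2 probes described as mu constant region were at -2.82 and 0.65 in WT and at -0.51 and 2.83 in Tlr3-deficient cells, 4.95-fold and 4.52-fold higher. The probe named Ighm was at -0.80 and -0.51, under 2-fold. Ighg3 was at -2.44 and -0.31, 4.37-fold higher. A probe described as Ig delta chain C region was at -4.19 and -4.18, nearly equal. That probe carries the name Ighv14-2 and is counted above by that symbol. A probe described as hypothetical I alpha polypeptide was at -4.11 and -4.37, and its description does not say that it reads the alpha constant region. The brightest antibody probe of the heavy locus belongs to a predicted heavy chain transcript and was at 3.65 in WT and 7.77 in Tlr3-deficient cells. Without tumor that probe was at 2.62 in WT and 0.91 in Tlr3-deficient cells. With tumor the 2 probes next to it (chr12:114497123-114497182 and chr12:114497243-114497302) were 21.8-fold and 21.1-fold higher. The brightest probe (chr12:114496985-114497044) and the 2 next to it lie at the start of the locus window. The I alpha probe (chr12:114503159-114503217) lies between them and Ighg2c. Their descriptions name no constant region, and whether they read IgA transcripts was not tested.

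Of 10 tested plasma cell genes outside the antibody loci 4 were at least 2-fold higher and 0 lower, with a median of 0.77, and with normexp Jchain alone stayed at least 2-fold higher. Jchain was at -1.18 on the WT tumor array and 3.34 on the Tlr3-deficient tumor array, 22.9-fold higher, against -2.75 and -4.03 without tumor. Pou2af1, a coactivator of antibody genes, was at -3.80 and -2.47. Mzb1, a plasma cell chaperone of the endoplasmic reticulum, was at -2.19 and -1.16. Tnfrsf13b, the receptor TACI, was at least 2.85-fold higher. Tnfrsf17, the plasma cell receptor BCMA, cleared the background in Tlr3-deficient cells alone (-4.68) with a bound under 2-fold, and the transcription factor Irf4 was not above background on either array. Prdm1 and Xbp1, regulators of plasma cell fate that epithelium also expresses, differed by -0.39 and 0.38.

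B cell and T cell markers differed less than the antibody genes. Of 8 tested B cell genes 1 was called: Fcer2a, the low-affinity IgE receptor CD23, was at -1.92 in WT and -0.32 in Tlr3-deficient cells. Ms4a1, encoding CD20, was at -3.79 and -3.34. Pax5, Blk and Cd22 were not well above background on either array. The summed signal of the B cell list was 4.32 on the WT and 4.38 on the Tlr3-deficient tumor array in log2 units, and that of the plasma cell list 4.80 and 5.25. Such sums are weighted toward the brightest members. On the WT tumor array the brightest B cell gene was at 3.56, against a list median of -2.85. The brightest plasma cell gene was at 4.26 there, against a list median of -1.06. Whether these sums follow the amount of B or plasma cells was not tested. Among 10 tested T and NK cell genes, Cd3d was at least 2.71-fold higher and Klrb1c 2.99-fold lower, with a list median of 0.14. In a bulk sample a different number of cells of a type and a different amount of RNA per cell cannot be told apart, and the part of any cell type in the antibody signal was not tested.

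Tlr3 itself was lower on the Tlr3-deficient array. Its brighter probe (chr8:46481729-46481788, minus strand) was at -3.94 in WT and -5.30 in Tlr3-deficient cells with tumor, 2.55-fold lower, with a scanner error of 0.35. The second probe (chr8:46482009-46482068) was at -4.10 and -5.36, 2.40-fold lower. Both kept the flag for signal above background in Tlr3-deficient cells, at the edge of what counts as such there (-5.41). The files do not say which part of the gene the allele removes, so the probes check only their own part of the transcript. With normexp the brighter probe differed by -0.62.

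The rest of the double-stranded RNA pathway lay close to equal. Tlr3 was the only 1 of 26 tested genes of that list at least 2-fold different, and the list median was 0.03. The adaptor Ticam1 was at -0.34 in WT and 0.01 in Tlr3-deficient cells. The cytosolic RNA helicases Ifih1 and Ddx58 differed by 0.05 and -0.33, and Irf3, the factor that carries the signal to interferon genes, by -0.22. Oas2, which activates RNA decay on double-stranded RNA, had the largest positive difference at 0.73, and Zbp1, a sensor of unusual nucleic acid structures, the largest negative one after Tlr3 at -0.79. None of the 17 tested NF-kB feedback and target genes was at least 2-fold different, with a range from -0.82 to 0.82, and none of 14 other Toll-like receptor genes.

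Of the chemokines and growth factors that draw neutrophils, Cxcl5 was lower. It was at -1.52 in WT and -3.88 in Tlr3-deficient cells with tumor, 5.13-fold lower, while without tumor it was at -5.36 and -5.05. The WT tumor array alone was high for it. Cxcl12, a ligand of Cxcr4 that retains neutrophils in bone marrow, was at 1.37 and 2.40, 2.04-fold higher in Tlr3-deficient cells, and also higher without tumor (1.17 and 2.67). These were the 2 called of 11 tested genes, whose median was -0.03.

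The other neutrophil attractants differed by under 2-fold in the scanner files. Cxcl1 was at 3.51 in WT and 3.16 in Tlr3-deficient cells, Cxcl2 at -1.84 and -2.06, and Cxcl3 at -2.77 and -2.69. Cxcl15, the lung epithelial chemokine lungkine, was at 7.44 and 7.41. The cytokines Il1b (1.13 and 0.99) and Il6 (2.65 and 2.58) were nearly equal, Csf2 differed by 0.28 and Tnf by 0.38. Csf3, Il1a and Il17a were not well above background on either array.

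For 4 genes of this question the authors' deposited value table gives other values than the scanner files. The table and the scanner files differed by more than 3 log2 units in this comparison at 6 of all probes, which belong to Tlr3, Cxcl1, Cxcl2 and Cxcl12. In the authors' deposited table Cxcl1 was at 13.24 for WT against 4.90 for Tlr3-deficient cells, which differ by -8.34, where the scanner files give -0.35. Cxcl2 differed by -4.20 in that table and by -0.22 in the scanner files. The 2 probes of Cxcl12 differed by -8.91 and -6.17 in the authors' deposited table and by 1.03 and 0.78 in the scanner files, so the direction is opposite. The 2 probes of Tlr3 differed by -8.25 and -7.17 in the table and by -1.35 and -1.26 in the scanner files. Over the other probes the differences from the 2 sources correlated at r = 0.99 across probes. The labels and headers do not describe how the deposited table was made, and the cause was not tested.

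Neutrophil transcripts were somewhat lower in Tlr3-deficient cells, mostly by less than 2-fold. The list of 16 tested genes had a median of -0.52, and 11 of the 16 were negative, against a median of -0.05 over all genes. S100a9, a subunit of calprotectin, was at 6.31 in WT and 5.69 in Tlr3-deficient cells, and S100a8, the other subunit, differed by -0.41. Retnlg, which encodes a resistin-like protein of granulocytes, was at 0.97 and 0.22, and the granulocyte receptor Csf3r at -2.07 and -2.82. Ltf, lactoferrin, which airway glands also make, was the only member at least 2-fold lower, at 3.26 and 1.74. Mpo, the myeloperoxidase of granulocyte precursors, was the only one at least 2-fold higher, at -4.20 and -1.50, and Ngp and Camp, of the specific granules that form later, differed by 0.34 and 0.60. All 16 were higher on each tumor array than on the array of the same genotype without tumor.

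Among 12 tested alveolar macrophage genes 2 were at least 2-fold higher in Tlr3-deficient cells, and the median was 0.46. Chil3, the chitinase-like protein Ym1, was at 1.49 in WT and 3.24 in Tlr3-deficient cells. Marco, a scavenger receptor, was at -2.79 and -1.14. Siglecf and Siglec1, surface lectins of these macrophages, were not well above background on either array. Of 10 tested monocyte and dendritic cell genes Ccr2 was called, at -4.15 and -3.15, but the mean of its probes gave the opposite direction (-0.86).

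Red cell transcripts were lower in Tlr3-deficient cells with tumor. Ahsp, the chaperone of alpha globin, was at -0.53 in WT and -2.89 in Tlr3-deficient cells. Slc4a1, the band 3 anion exchanger, was at 0.21 and -1.81, and Alas2, the erythroid heme synthesis enzyme, at 3.52 and 1.92. Hba-a1, an alpha globin, was at 7.86 and 6.80, 2.08-fold lower. Of 7 tested genes 5 were at least 2-fold lower, 7 of 7 were negative, and the median was -1.60. Without tumor the same list had a median of 0.76, higher in Tlr3-deficient cells, with Hba-a1 at 7.02 and 8.03. Of 8 platelet genes 0 were called with tumor, and their median was 0.09. The part of red cell RNA in other differences was not tested.

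**Figure D3:**
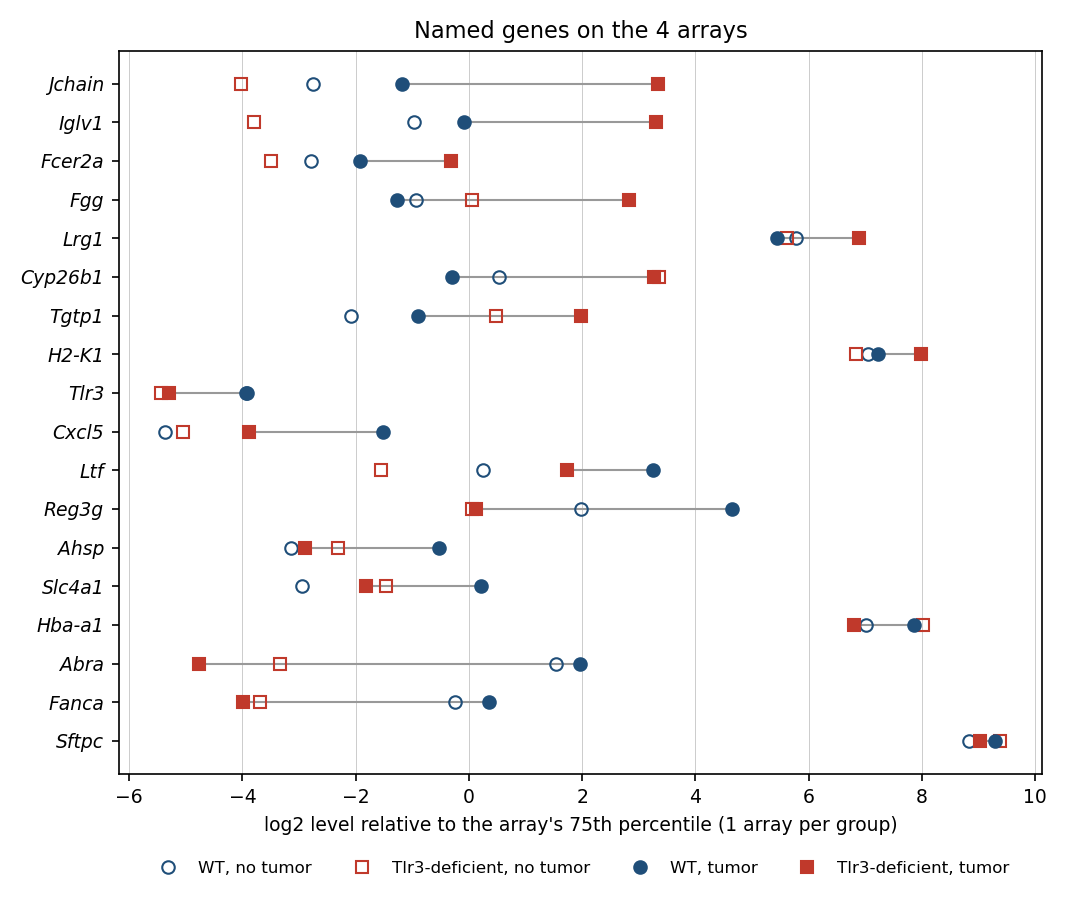
Log2 levels, relative to each array's 75th percentile, of 18 named genes on the 4 arrays (1 array per group); circles are WT and squares Tlr3-deficient, open without tumor and filled with tumor, and the grey line joins the 2 tumor arrays. Jchain, Iglv1 and Fcer2a are highest on the Tlr3-deficient tumor array, Cxcl5, Reg3g and Ahsp are highest on the WT tumor array, Abra and Fanca separate by genotype in both tumor states, and Sftpc lies between 8.84 and 9.39 on all 4.

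Among genes of airway defense more were at least 2-fold lower than higher. Reg3g, an antibacterial lectin, was at 4.64 in WT and 0.13 in Tlr3-deficient cells with tumor, 22.9-fold lower, and at 1.98 and 0.05 without tumor. Wfdc12, an antibacterial protease inhibitor, was at -2.13 and -4.14. Agr2, a disulfide isomerase needed for mucins, was at -1.30 and -2.82, and Dmbt1, a secreted scavenger protein, at -3.35 and -4.76. Defb1, a beta-defensin, was at least 2.02-fold lower, and the mucin Muc5ac was 2.08-fold lower at its brighter probe but at -0.03 with the mean of both probes. With Ltf, 7 of 25 tested genes of this list were at least 2-fold lower and 2 higher, and the median was -0.23. The higher ones were Chil4, the chitinase-like protein Ym2, at -2.43 and -0.44, and Psca, a cell surface protein of several epithelia, at -4.63 and 0.09. Without tumor Psca was not well above background in WT and at -0.43 in Tlr3-deficient cells, at least 28.2-fold higher.

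The secretoglobins and other club cell genes, made by the secretory cells of small airways, differed by under 2-fold apart from Reg3g, with a median of -0.22 over 12 genes. The 11 tested ciliated cell genes had a median of -0.33, with 10 of 11 negative and 0 called.

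Acute phase genes were higher for part of the list. Fgg, the fibrinogen gamma chain, was at -1.26 in WT and 2.82 in Tlr3-deficient cells, 16.9-fold higher. Lrg1, a secreted glycoprotein of the acute phase, was at 5.44 and 6.90, 2.75-fold higher. Serpina3g, Serpina3n and Itih4, which are protease inhibitors or related plasma proteins, were 2.47-, 2.10- and 2.14-fold higher. These were 5 of 22 tested genes, 0 were lower, and the median was 0.24. Apob, the main protein of lipoproteins, was at least 6.49-fold higher at the probe that represents it, where the WT signal did not clear the background. Another Apob probe was above background in WT cells alone, and the mean of all 5 probes differed by 0.34.

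Of 22 tested complement genes 18 were under 2-fold, 3 were higher and 1 was lower, and with normexp C7, Masp1 and Cfd of these 4 came under 2-fold. C7, of the membrane attack complex, was at -4.33 in WT and -3.09 in Tlr3-deficient cells, the inhibitor Cfi at -1.33 and -0.18, and Masp1, a protease of the lectin pathway, at -4.23 and -3.12. Cfd, the protease that starts the alternative pathway and a fat cell product, was at least 2.32-fold lower. The median of the list was 0.18.

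Antigen presentation genes of class I lay above equality as a group. H2-K1, a classical class I heavy chain, was at 7.22 in WT and 7.99 in Tlr3-deficient cells, and B2m, its light chain, at 6.15 and 6.82. Tap1 and Tap2, which carry peptides into the endoplasmic reticulum, were at -2.04 and -2.05 in WT and at -0.98 and -1.01 in Tlr3-deficient cells, the 2 called of 14. The immunoproteasome subunits Psmb8 and Psmb9 differed by 0.70 and 0.64. In all 13 of 14 genes were positive with a median of 0.65, where 43.1% of all genes tested were positive. Without tumor the median was -0.22.

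Of 10 class II genes 2 were called. H2-DMb2, a chain of the peptide loading protein of class II, was at -4.57 in WT and -1.95 in Tlr3-deficient cells, and H2-Oa, a chain of its B cell inhibitor, at -4.28 and -2.53. The class II list had a median of 0.44.

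Few interferon-induced genes were called. Tgtp1, a GTPase induced by interferon-gamma, was at -0.91 in WT and 1.97 in Tlr3-deficient cells with tumor, and at -2.08 and 0.48 without. Gbp4, a guanylate-binding protein, was at -3.68 and -2.54. For the 19 tested genes of the interferon-gamma response the median was 0.25, with 2 higher and 0 lower. Among 29 genes induced by type I interferon the median was -0.06 and 1 was called: Rsad2, viperin, was at 0.37 and -1.50, and at -2.55 and -1.19 without tumor. Cxcl17, a mucosal chemokine, and Cx3cl1, fractalkine, were 2.04- and 2.11-fold higher, the 2 called of 23 other chemokines.

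Enzymes of the cytochrome P450 family included 5 of 20 higher and 0 lower, where 2.92% of all genes tested were higher and 2.64% lower. The list median was 0.27, and 0.08 with normexp. Without tumor the median was -0.31, with 1 higher and 2 lower. Cyp26b1, which breaks down retinoic acid, was at -0.30 in WT and 3.27 in Tlr3-deficient cells, and at 0.52 and 3.36 without tumor. Cyp2a4 was at 1.52 and 3.08 and Cyp2a5 at 1.62 and 3.30, and their near-identical sequences may share probe signal. Cyp2a22 was 3.48-fold and Cyp1a1, the target of the aryl hydrocarbon receptor, 3.33-fold higher. In the retinoid list Lrat, which stores retinol as its ester, was at -2.45 and -0.70, while Rbp7, a retinol-binding protein, was at -1.06 and -4.26. The 18 tested retinoid genes had a median of -0.06.

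Of 19 tested clock genes 2 were higher and 2 lower. Per1, a repressor of the clock that glucocorticoid also induces, was at 1.37 in WT and -0.56 in Tlr3-deficient cells, and Npas2, a partner of the clock activator, was 2.07-fold lower. Dbp, a clock output factor, was at 1.34 and 2.74, and the related Hlf at -4.57 and -3.38. The other 15 were under 2-fold, and the hour at which lungs were taken is not given in the labels. Per1 was the only 1 of 16 tested glucocorticoid-induced genes called.

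Several of the largest differences belonged to single genes with no group around them. Abra, an actin-binding activator of serum response factor in muscle, was at 1.96 in WT and -4.77 in Tlr3-deficient cells with tumor, 106-fold lower. Of 20 tested actin and striated muscle genes it was the only one at least 2-fold lower, and Ankrd1, a stretch-responsive repeat protein, was 2.69-fold higher. Fanca, of the Fanconi anemia DNA repair complex, was 20.3-fold lower at its brighter probe and 2.19 lower in log2 units with the mean of both. Its other probe was not well above background on either tumor array, so that mean is not a second reading. Of 18 tested repair genes 16 were under 2-fold. Rrp7a, a ribosome assembly factor, was 20.1-fold lower at its brighter probe and 2.37 lower in log2 units with the mean of its probes.

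On the higher side Slc6a20a, a proline transporter, was at -2.75 in WT and 1.54 in Tlr3-deficient cells. Pttg1, securin, which guards chromosome separation, was at 1.42 and 4.62, while the median of 25 cell cycle genes was -0.18 and 0 of them were called. Agpat4, an acyltransferase of phospholipid synthesis, was at -0.98 and 2.28, and Enpp1, which makes pyrophosphate, at -3.44 and -0.40. Prg2, the eosinophil major basic protein, was at least 18.1-fold higher and Krt86, a hair keratin, at least 8.25-fold higher.

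Further lower genes were Fam89a (12.9-fold), Arxes1 (12.8-fold), Rbm45 (10.1-fold), Dhtkd1 (10.1-fold), Snhg18 (9.70-fold), Ooep (9.59-fold) and Cthrc1 (8.72-fold). The other Dhtkd1 probe, measured on both arrays, differed by 0.14, and the mean of both by -1.60. Raet1e, a stress ligand of the NK cell receptor NKG2D, was at -1.09 in WT and not above background in Tlr3-deficient cells with tumor, with a bound of -4.32 log2 units, and without tumor it was at -1.42 in WT and again not above background in Tlr3-deficient cells. The 2 probes of Timd2 went opposite ways, at least 4.60-fold lower at the brighter one and at least 2.84-fold higher at the other. Gpx3, the secreted glutathione peroxidase, was at 3.84 and 1.80, Aqp3, a water and glycerol channel, at 0.63 and -1.19, and Fbn2, a fibrillin of elastic microfibrils, at -3.20 and -4.99. Peg3, a paternally expressed imprinted gene, was at -3.54 and -5.27, and the imprinted RNA Rian was at least 3.02-fold lower.

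Markers of alveolar type II cells were close to equal on both arrays. Sftpc, surfactant protein C, was at 9.30 in WT and 9.03 in Tlr3-deficient cells, Sftpb at 7.06 and 7.19, and the lipid transporter Abca3 at 4.97 and 4.96. The lineage factor Nkx2-1 was at 3.75 and 3.79. None of 22 alveolar type II genes was at least 2-fold different, the differences ran from -0.30 to 0.50, and the median was -0.06. None of 15 reference genes was called, with a median of 0.01.

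Alveolar type I and endothelial genes, which mark cells next to the type II cells in the alveolar wall, were a little higher. Of 14 type I genes 12 were positive with a median of 0.33, led by Spock2 (0.92) and Cav1 (0.83), and 0 were called. Of 14 endothelial genes 14 were positive with a median of 0.51, and 1 was called, Vwf, von Willebrand factor, at 2.75 in WT and 3.81 in Tlr3-deficient cells. Over all genes tested 43.1% were positive. Without tumor the type I median was 0.91 with 5 called higher, and the endothelial median 0.43 with 1 called higher, so neither shift was particular to the tumor samples. With tumor the summed endothelial signal was 5.46 in WT and 5.98 in Tlr3-deficient cells in log2 units, and its part in other differences was not tested. Genes of tight junctions (19 tested), fatty acid and phospholipid synthesis (22), cholesterol synthesis (22), heat shock chaperones (19), the unfolded protein response (19), the NRF2 antioxidant response (18) and collagens (19) had 0 calls each. Over the 50 lists 767 genes were tested, 43 were higher and 31 lower, and 17 lists had no member called. The share called was 9.65%, against 5.55% of all genes tested. The lists were chosen with earlier results of these data known, so the larger share is not a result about them.

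**Figure D4:**
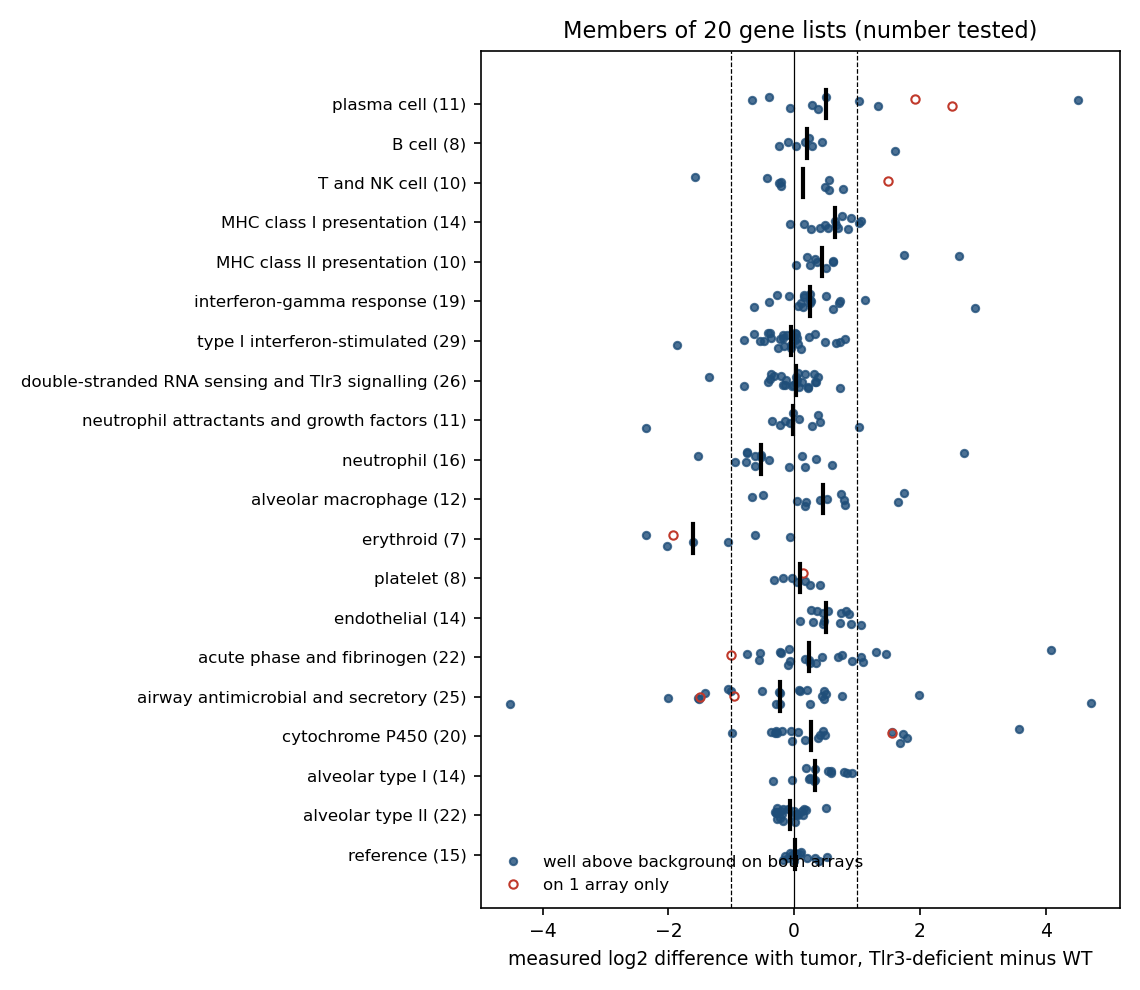
Each point is the measured log2 difference with tumor, Tlr3-deficient minus WT, of a tested member of 20 gene lists (number tested in brackets); black bars are medians, dashed lines mark 2-fold, and open red circles were well above background on only 1 array, so that they are known as bounds. The erythroid median lies at -1.60 and the neutrophil median at -0.52, the class I presentation median at 0.65, and the alveolar type II and reference members lie close to 0.

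The genotype comparison without tumor shares no array with the one described here, so it shows which differences were present in other samples of the same genotypes. Its Tlr3-deficient array had Xist at -4.05 against 4.05 in WT, and its WT array had an SD of 0.31 between replicate spots, so it is the less certain of the pair. Of 330 genes higher with tumor and tested in both states, 98 (29.7%) were at least 2-fold higher without tumor too, where 5.09% of all such genes were. Of 352 genes lower with tumor, 100 (28.4%) were lower without tumor, where 2.01% of all such genes were. Genes called the opposite way numbered 57. Of the 15 largest measured downward differences among genes with an approved symbol 11 were called lower without tumor as well, Abra, Fanca, Rrp7a, Fam89a, Rbm45, Snhg18 and Ooep among them. Of the 15 largest upward ones 7 were called higher there, namely Psca, Slc6a20a, Cyp26b1, Agpat4, Pttg1, Enpp1 and Tgtp1, and 3 went the opposite way, Igkv4-59, Jchain and Iglv1. For Igkv4-59 the difference without tumor is a bound of -1.10. The erythroid median had the opposite sign without tumor. Most antibody probes and the WT level of Cxcl5 were not above background there, so their signs are not readings, and the interaction of genotype and tumor cannot be tested with 1 array per group.

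**Figure D5:**
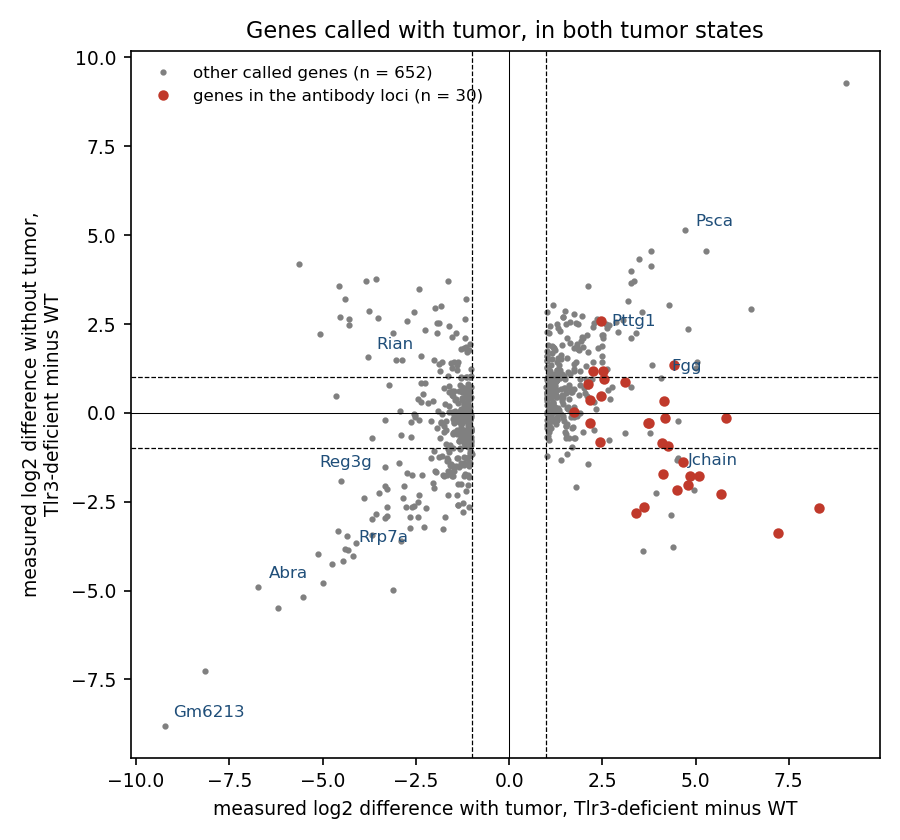
Each point is a gene at least 2-fold different with tumor and tested in both tumor states (330 higher and 352 lower), with its measured log2 difference, Tlr3-deficient minus WT, with tumor on the x axis and without tumor on the y axis; dashed lines mark 2-fold. Genes such as Abra, Rrp7a and Psca lie along the diagonal, 198 genes being called the same way in both states, while the red genes of the antibody loci all lie to the right and fall on both sides of 0 without tumor.

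The share of genes called in both states varied between chromosomes, which was not tested. On chromosome 15 called genes made up 7.29% of 713 tested genes and those called the same way without tumor 3.09%, on chromosome 9 they made up 6.52% and 2.65%, and over the whole genome 5.55% and 1.09%. Chromosome 19 had 7.59% called and 1.94% called the same way without tumor. Of the 15 largest measured downward differences 5 lay on chromosome 15, namely Abra, Rrp7a, Snhg18, Cthrc1 and Ctnnd2. Chromosomes 6 and 12 had the highest shares, 11.7% and 10.3%, and without the antibody loci these came to 6.75% and 5.05%. Within 10 Mb of Tlr3 on chromosome 8, 17 of 67 tested genes (25.4%) were called and 8 of them were called the same way without tumor, against 1 of 76 genes between 10 and 20 Mb. Those called included F11, a clotting factor (2.48-fold lower), Pdlim3, a muscle scaffold protein (2.74-fold higher), and Cenpu, a kinetochore protein (2.52-fold higher). The predicted gene Gm6213, 6.03 Mb away, was at 1.71 in WT and at least 139-fold lower in Tlr3-deficient cells. Many of the lower genes in this window are known only as bounds, among them Mtmr7, Slc7a2, Zfp42, Adam26a and Cldn22. With normexp F11 (-0.77) and Zfp42 (-0.45) came under 2-fold, while Pdlim3 (1.31) and Cenpu (1.21) did not. The labels do not give the strains, so what genotype and flanking DNA each contribute cannot be told apart.

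Where a gene had further probes, these often gave a smaller difference. Of 115 called genes with other probes well above background on both arrays, 86 (74.8%) had all other probes in the same direction and 42 (36.5%) had all of them at least 2-fold. Jchain was among those that held, with 4.52 at 1 probe and a mean of 4.43 over both. Enpp1, at 3.04, came to 0.52 with the mean of its 2 probes. Its other probe was not well above background on either tumor array, so that mean is not a second reading. For Tgtp1 the mean of both probes was 2.03 against 2.88 at the brighter one.

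Some of the 2-fold differences depended on the processing. With normexp, a background correction that adds an offset to each intensity, 77 of the 106 genes chosen for naming that were at least 2-fold different stayed so and all 106 kept their direction. The 29 that came under 2-fold included C7, Ccr2, Cd3d, Cfd, Cxcl17, Cyp2a22, Defb1, Dmbt1, Fbln2, Fbn2, Gbp4, Hlf, Ier3, Klrb1c, Masp1, Muc5ac, Mzb1, Npas2, Peg3, Pou2af1, Rian, S100a3, Serpina3n, Slc38a1, Tap1, Tap2, Tlr3 and Tnfrsf13b. With the mean of all probes 16 came under 2-fold or were turned: Adamtsl3, Apob, Apol7a, Ccr2, Cx3cl1, Cxcl12, Defb1, Enpp1, Grap2, Klrb1c, Masp1, Muc5ac, Rian, Slc38a1, Timd2 and Tnfrsf13b. For Adamtsl3, Apol7a, Enpp1 and Grap2 the other probes were not well above background on either tumor array, so their means are not further readings. Hba-a1 came just under 2-fold with median centring, with quantile scaling and, at -0.95, in the authors' deposited table. Defb1 came under 2-fold with median centring and quantile scaling, and Muc5ac, Npas2 and Slc38a1 with median centring.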

How the data were processed

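Per the labels' protocols, total RNA was amplified and labelled in 1 colour and hybridized to Agilent design 014868, and per the file headers the images were read with Feature Extraction 10.7.3.1. That program's background-subtracted intensity, deposited on a linear scale and not scaled between arrays, was used. The authors deposited a value table of log2 values, whose making the labels and headers do not describe.

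Control spots and outlier spots were left out, spots of a probe were averaged, log2 was taken and each array's 75th percentile subtracted. A gene was represented by its brightest probe over the 4 arrays and tested where any of its probes was well above background on 1 array at least. Differences of 2-fold were called. Where only 1 array was above background, the brighter value was set against the higher of the dim value and the lowest signal well above background on that array ("at least N-fold"). Names came from the RefSeq accession table for 27660 of 41174 probes and from the scanner files otherwise, and coordinates are mm9 from the array annotation. Genes named are Tlr3, the 15 largest measured differences and 6 largest bounds in each direction among genes with an approved symbol (no accession, clone, Rik or Gm name), list members at least 2-fold different (at most 6 a list), members of the double-stranded RNA and neutrophil attractant lists, cell type markers and up to 4 other members of a list. A few genes that this rule names are counted but not reported here. Constant regions, other probes of a gene, the antibody loci and genes near Tlr3 were named after their values were seen. The members and gene lists were chosen with earlier results of these data known. The alternatives were normexp (limma 3.58.1, R 4.3.3, offset 50), quantile or median scaling, the mean of all probes, the authors' deposited log2 table, and 2 other filters on dim probes. Python 3.11.15 was used, and the scripts were tested on simulated data. Precision is limited by having 1 array per group.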

Additional observations from a re-analysis of the deposited data

Results flagged for a closer look

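Some genes were at least 2-fold different in one direction with tumor and at least 2-fold in the other without tumor, Tlr3-deficient minus WT in both cases. With 1 array per group this difference was not tested. For the antibody genes the differences were 5.68 with and -2.29 without tumor for Igkv4-59, 4.52 and -1.28 for Jchain, and 3.39 and -2.82 for Iglv1. Igkv4-59 was not well above background in Tlr3-deficient cells without tumor, so its -2.29 is known only as a bound of -1.10. Red cell genes went the other way, with -1.06 and 1.01 for Hba-a1 and -2.02 and 1.49 for Slc4a1, and the erythroid list had medians of -1.60 and 0.76.

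Of the P450 genes, Cyp2a22 differed by 1.80 with and -2.09 without tumor and Cyp2a4 by 1.56 and -1.15. The clock output gene Dbp differed by 1.40 and -1.32. Fbn2, of elastic microfibrils, differed by -1.79 and 1.43, and the antiviral gene Rsad2 by -1.87 and 1.36. The imprinted RNA Rian differed by -3.77 and 1.57 as measured, and Lelp1, a late cornified envelope-like gene, by -4.56 and 3.57 as measured. Rian and Lelp1 were not well above background on the Tlr3-deficient tumor array nor on the WT array without tumor, so all 4 differences are known only as bounds. Without tumor the bounds are 1.47 for Rian and 1.42 for Lelp1. Cyp2a22 was not above background in Tlr3-deficient cells without tumor. The array without tumor labelled Tlr3-deficient had little Xist, and what that adds to these opposite values was not tested.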

How the results depend on the processing

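The counts depended on how dim probes were handled. The main counts of 528 higher and 478 lower genes became 245 and 183 with normexp, 323 and 290 with only genes well above background on both arrays, and 1042 and 1262 with no filter on dim probes. Quantile scaling, median centring, the mean of all probes and the authors' deposited table kept both counts within 1.5 times. The antibody median of 4.26 was 2.40 with normexp, 3.71 over probes well above background on both arrays and 3.92 with no filter. The erythroid median of -1.60 was -1.04 with normexp and -1.33 with either of the other filters, and the neutrophil median moved by less than the spot SD. Normexp adds an offset to each intensity, so it shrinks dim differences by construction. Of 106 named genes at least 2-fold different, 106 kept their direction and 77 their 2-fold difference with normexp, and 103 and 90 with the mean of all probes. The reversals were Ccr2, at -0.86 with the mean of all probes, and Cxcl12, at -8.91 in the authors' deposited table; the cause was not tested. No paired analysis was possible because each group has 1 array, and for the same reason no array could be left out. Animal-to-animal variation, slide and scan order were not separable from genotype, and dim genes limit the bounds.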
